A study of Mus musculus with 4 samples.

Results

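Pericyte and smooth muscle genes were followed through a time course of NRAS withdrawal in mouse melanoma. The 9 genes were Acta2, Tagln, Myh11, Cnn1, Mylk, Rgs5, Cspg4, Pdgfrb and Notch3. They were taken as every probe set whose annotated symbol was one of these names, which gave 20 of the 45037 probe sets on the array and 9 of 18193 genes. The tumours grew in the dermis of nude mice, hosts that lack a thymus, from iNRAS-475, a single mouse melanoma line in which NRAS, a small GTPase upstream of the ERK kinases, is switched on by doxycycline. All hosts drank 2 mg/ml doxycycline while the tumours reached 200 to 500 mm3 over 6 weeks. The control was 1 tumour whose host stayed on the drug, and 1 further tumour was arrayed for each of 24, 48 and 72 h after withdrawal. Age of the hosts, and the promoter that drives NRAS, are not given in the sources used here. Host and tumour cells are both murine, so RNA of host vessels and RNA of melanoma cells cannot be told apart, and in a piece of tumour fewer cells of a type and less RNA per cell cannot be told apart either. With 1 array per condition no difference has a replicate error, and no p-value is given.

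Pericytes wrap capillaries and smooth muscle cells wrap larger vessels, and both stabilise the vessel and set its width. Endothelial cells recruit them with PDGF-B, which acts on PDGFR-beta, and Notch ligands on the endothelium act on NOTCH3 to mature them. Mature smooth muscle contracts through alpha actin and smooth muscle myosin, and serum response factor (SRF) switches on many of these contractile genes by binding a DNA motif called the CArG box. Myofibroblasts of tumour stroma also make alpha smooth muscle actin, and some melanoma cells make NG2, the product of Cspg4, so these genes are not markers of vessels alone.

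The promoters of the 3 genes that differed by 2-fold at any time off doxycycline are shown so that the motif can be read beside their values. They are the 250 bases before the annotated start site in the RefSeq annotation of GRCm38.p6, written 5′ to 3′ on the strand of the gene. Capitals mark CArG boxes, searched on both strands as CC, 6 middle bases that are A or T, and GG, with up to 1 G or C allowed among the middle bases.
Acta2, chr19:34255374-34255623, minus strand: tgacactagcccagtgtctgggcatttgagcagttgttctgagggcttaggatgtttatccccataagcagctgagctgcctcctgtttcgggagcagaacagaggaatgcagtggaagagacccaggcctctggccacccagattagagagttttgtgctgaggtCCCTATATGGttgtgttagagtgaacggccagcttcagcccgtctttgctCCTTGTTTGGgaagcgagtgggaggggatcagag
Rgs5, chr1:169655251-169655500, plus strand: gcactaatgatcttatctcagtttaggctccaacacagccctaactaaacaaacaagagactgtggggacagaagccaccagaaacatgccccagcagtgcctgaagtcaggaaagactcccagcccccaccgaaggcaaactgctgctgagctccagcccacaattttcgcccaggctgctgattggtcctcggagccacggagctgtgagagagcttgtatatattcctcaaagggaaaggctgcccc
Cspg4, chr9:56864854-56865103, plus strand: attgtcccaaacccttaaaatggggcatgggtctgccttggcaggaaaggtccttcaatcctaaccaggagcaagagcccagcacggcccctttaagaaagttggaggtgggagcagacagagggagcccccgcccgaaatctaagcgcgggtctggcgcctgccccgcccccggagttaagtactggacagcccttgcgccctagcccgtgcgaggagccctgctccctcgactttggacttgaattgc
The Acta2 window held a pair of boxes, CCCTATATGG starting 84 bases before the start site and CCTTGTTTGG starting 34 bases before it. Neither is an exact CArG box. Of 6 members with a window, the exact motif was found in 0, and the form with 1 G or C in 1, Acta2; the windows of Rgs5, Cspg4, Cnn1, Mylk and Notch3 held none. Tagln, Myh11 and Pdgfrb had no window among the promoter sequences used, so their promoters were not searched. Of all 32851 promoter windows, 1.47% held an exact box, 8.59% held a box with at most 1 G or C, and 0.67% held 2 or more of the latter kind. These matches describe letters in a window and not sites in use.

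Among the contractile genes only Acta2 differed by 2-fold, on 1 of its 3 probe sets, and the 2 genes most specific to mature smooth muscle, Myh11 and Cnn1, stayed dim on all 4 arrays. Acta2 encodes alpha smooth muscle actin. Its brightest probe set, 1416454_s_at, had an intensity of 462 on doxycycline and of 980.1, 785 and 684 after 24, 48 and 72 h off the drug. The 3 arrays off doxycycline thus all lay above the control, with the highest value at 24 h and lower values after it. Differences are given as off minus on, in units of log2(intensity + 32), where the added 32 shrinks the differences of dim probe sets, and a difference of at least 1 in size is called 2-fold. For this probe set they were 1.03, 0.73 and 0.53 at 24, 48 and 72 h. The other Acta2 probe sets were dim, at 16.5, 15.2, 15.4 and 13.0 and at 11.1, 11.9, 11.1 and 11.1 over the same arrays, and their differences lay between -0.11 and 0.03. Probe sets whose names end in _s_at can match several transcripts of related sequence. Acta1, the skeletal muscle actin, read 47.5 on doxycycline and 284, 45.6 and 1353 at 24, 48 and 72 h. At 24 h, when Acta2 was past 2-fold, Acta1 was higher as well, by 1.99. At 48 h it was near its control level, at -0.03, and at 72 h it was at 4.12, when Acta2 was at 0.73 and 0.53. Any part of Acta1 signal in the Acta2 values was not tested.

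Tagln, which encodes the actin-binding protein transgelin (SM22-alpha), has 1 probe set. It read 443 on doxycycline and then 546, 452 and 405. The differences of 0.28, 0.03 and -0.12 stepped down over time as those of Acta2 did, but ended below the control.

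Mylk encodes myosin light chain kinase, which starts smooth muscle contraction. Its brightest probe set, 1425506_at, read 33.9 on doxycycline and then 48.1, 40.2 and 71.0, with differences of 0.28, 0.13 and 0.65. The 72 h array was the highest. The other probe sets read 24.4 to 31.4 over the 4 arrays, and their differences lay between -0.08 and 0.07.

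Myh11, the heavy chain of smooth muscle myosin, read 22.1 on doxycycline and 21.1 on each of the other arrays on 1 probe set, and 19.7, 19.7, 23.8 and 21.6 on the other. Cnn1, which encodes calponin, an inhibitor of actomyosin, read 22.9, 20.5, 18.1 and 21.8. Both genes lay below the level filter, a mean intensity of 24.9 over the 4 arrays (the 40th percentile of probe sets), and their differences lay between -0.13 and 0.11. At such intensities a lower level or a small difference could not be seen. The other 7 genes and 14 of the 20 probe sets passed the filter.

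**Figure D1:**
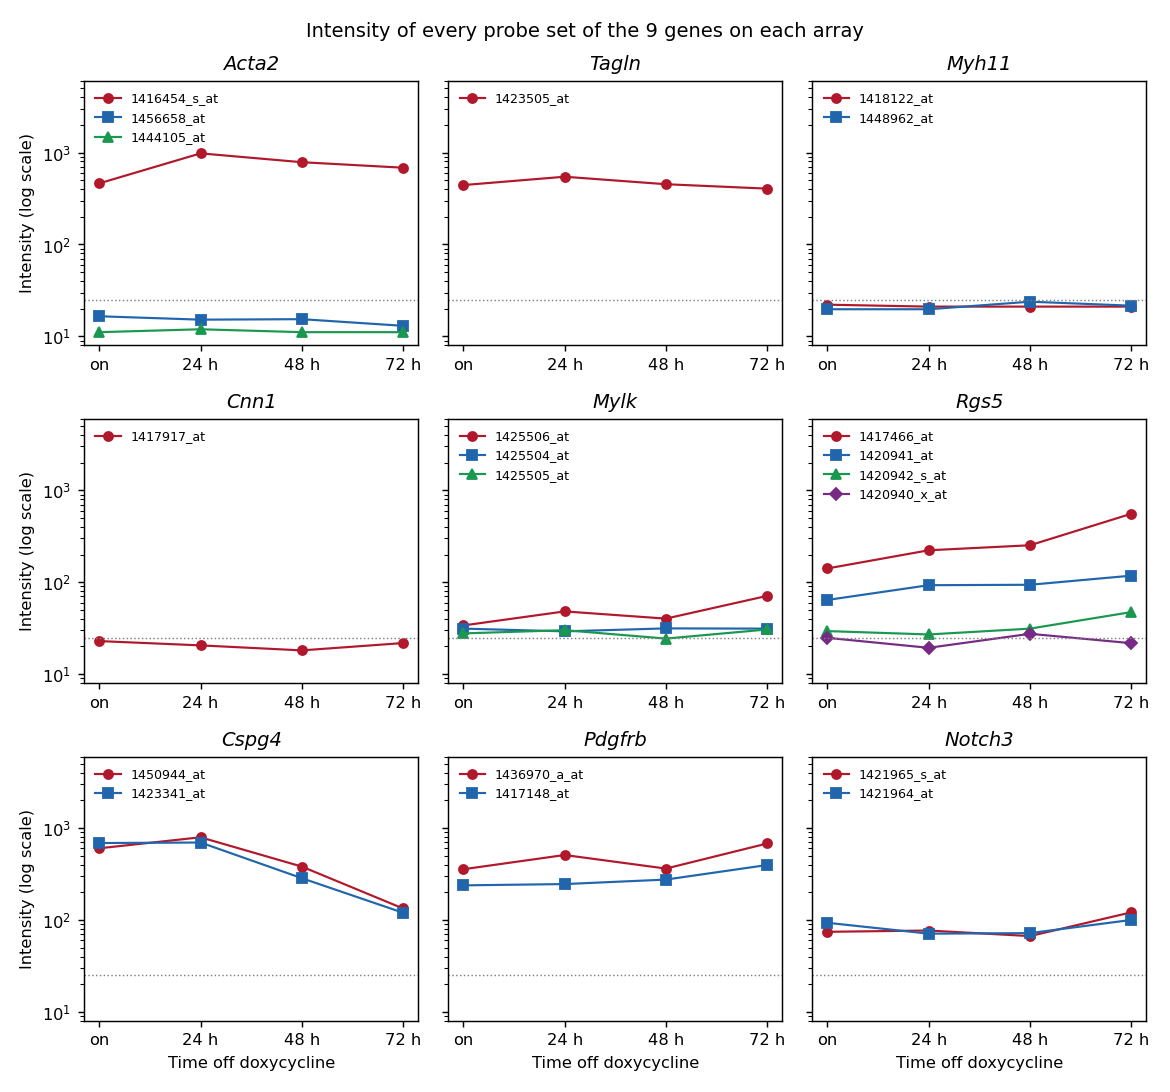
Intensity (log scale) of each of the 20 probe sets on the array of the tumour on doxycycline and on those taken 24, 48 and 72 h after withdrawal, 1 panel per gene and 1 line per probe set; the dotted line is the level filter, 24.9. Cspg4 declines on both probe sets to 133 and 119.9 at 72 h, the brightest Rgs5 probe set reaches 555, and Myh11 and Cnn1 stay near or below the dotted line.

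The receptor and signalling genes split at 72 h: Rgs5 and Pdgfrb were highest on that array, whereas Cspg4 was far below the control. Rgs5 encodes a regulator of G protein signalling and is a classic pericyte marker. Its brightest probe set, 1417466_at, read 141 on doxycycline and 223, 252 and 555 off it, in order of time. All 3 arrays off doxycycline lay above the control, with the largest step between 48 and 72 h, and the differences were 0.56, 0.72 and 1.76. A less bright probe set, 1420941_at, went the same way with smaller differences, 0.38, 0.39 and 0.64, reading 64.1 on doxycycline and 92.8, 93.8 and 118 at 24, 48 and 72 h. The third, 1420942_s_at, read 29.4, 27.0, 31.3 and 47.3, and the dimmest, 1420940_x_at, read 24.8, 19.3, 27.5 and 21.7, with differences at 72 h of 0.37 and -0.08. The 2-fold call at 72 h thus rests on 1 of 4 probe sets, and with the mean over probe sets the difference was 0.67.

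Pdgfrb encodes PDGFR-beta, the receptor through which PDGF-B recruits pericytes. The brighter of its probe sets, 1436970_a_at, read 357 on doxycycline, then 509, 362 and 679.6. The other, 1417148_at, read 238, 246, 275 and 396. Both were highest at 72 h, by 0.87 and 0.67, which is short of 2-fold. They parted at 24 h, where the differences were 0.48 and 0.04.

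Notch3 encodes a receptor needed for the maturation of arterial smooth muscle. Its probe sets read 74.3, 76.8, 66.8 and 121 on one and 93.1, 71.0, 71.9 and 100.1 on the other, from the control to 72 h. Both had their highest value at 72 h, but the second exceeded its control by little. The differences at 72 h were 0.53 and 0.08, and those at 24 h 0.03 and -0.28.

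Cspg4 encodes the proteoglycan NG2, a surface protein of pericytes that was also described as an antigen of human melanoma cells. Its brighter probe set, 1450944_at, read 603 on doxycycline, then 794, 381 and 133. The other, 1423341_at, read 687, 696, 285 and 119.9. Both stood at or above the control at 24 h and below it at 48 and 72 h, with differences of 0.38, -0.62 and -1.94 on the first and 0.02, -1.18 and -2.24 on the second. At 48 h only the second was past 2-fold. Sox10, a transcription factor of melanocytes and Schwann cells looked up after the fact, read 3771 on doxycycline and then 3613, 4681 and 3844. The brightest Sox10 probe set differed by 0.31 at 48 h and 0.03 at 72 h, and its other probe sets lay between -0.55 and -0.09 at 72 h. Any part of melanoma cell number in the Cspg4 values was not tested.

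**Figure D2:**
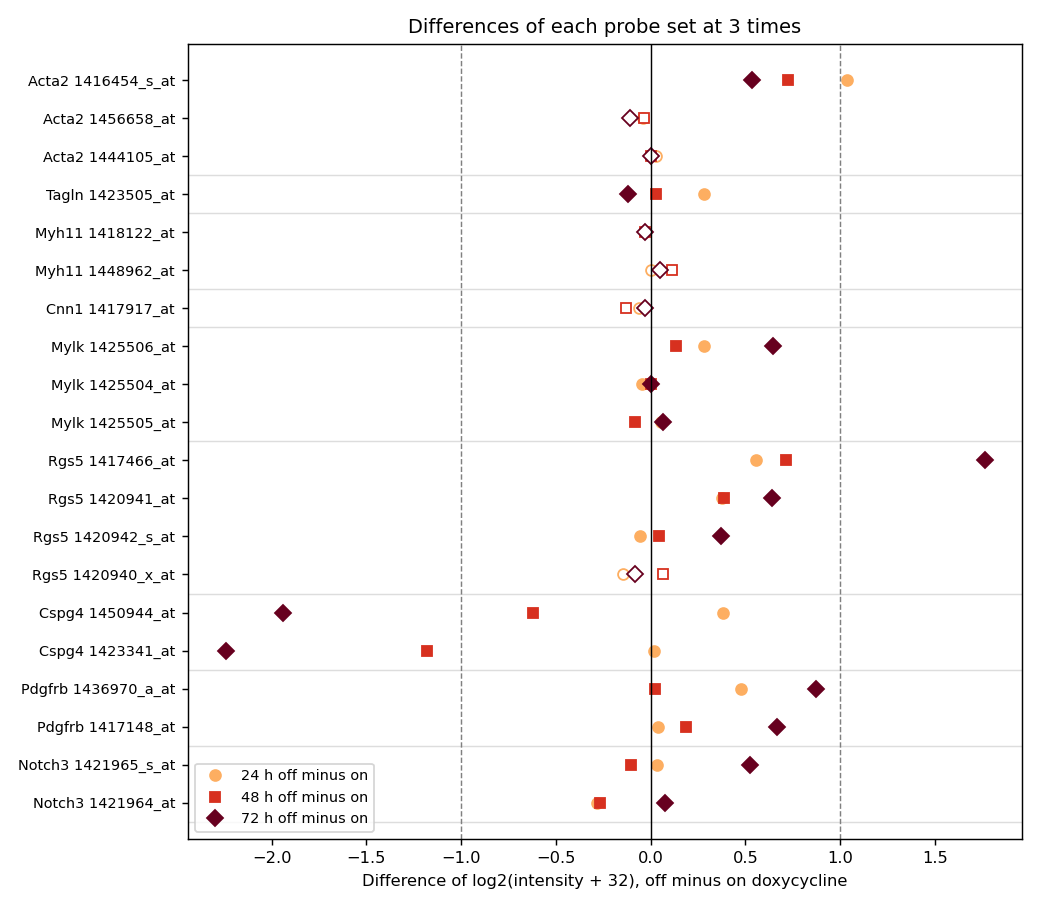
Difference of log2(intensity + 32), off minus on doxycycline, for each of the 20 probe sets at 24, 48 and 72 h; open symbols mark probe sets below the level filter and dashed lines a difference of 1. Both Cspg4 probe sets lie beyond -1 at 72 h (-1.94 and -2.24), 1 of 4 Rgs5 probe sets lies beyond 1 (1.76), and 1 of 3 Acta2 probe sets lies beyond 1 at 24 h (1.03).

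Counted by gene, with the brightest probe set of each, few members were past 2-fold at any time. At 24 h 1 of the 7 genes past the filter was higher, Acta2, and 0 were lower, where 0.266% and 0.0666% of all 13522 genes past the filter were called in those directions. Acta2 was 31st from the top of all genes. At 48 h 0 were higher and 0 lower, against 0.754% and 1.04% of all genes. At 72 h 1 was higher, Rgs5, which was 85th from the top, and 1 was lower, Cspg4, which was 43rd from the bottom, against 2.29% and 1.63% of all genes. The median difference of the 7 genes was 0.38, 0.03 and 0.53 at the 3 times, and that of all genes 0.00 at each. At 24 h 7 of the 7 lay above the control, and at 48 h and at 72 h 5 did, where 49.0%, 45.3% and 46.8% of all genes did. The count at 24 h includes Notch3 at only 0.03, with its other probe set at -0.28. The other probe sets of Cspg4 and Pdgfrb were near the control then, at 0.02 and 0.04. The middle 95% of all genes spanned -0.37 to 0.48 at 24 h, -0.68 to 0.64 at 48 h and -0.80 to 0.96 at 72 h. Pdgfrb, at 0.48, lay at the upper edge of that range at 24 h and, at 0.87, inside it at 72 h. The brightest Rgs5 probe set lay above the range at each time. The next brightest, 1420941_at, lay inside it at each time, at 0.38, 0.39 and 0.64. The 3 comparisons share the control array, so 1 high or low reading there would enter all of them.

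**Figure D3:**
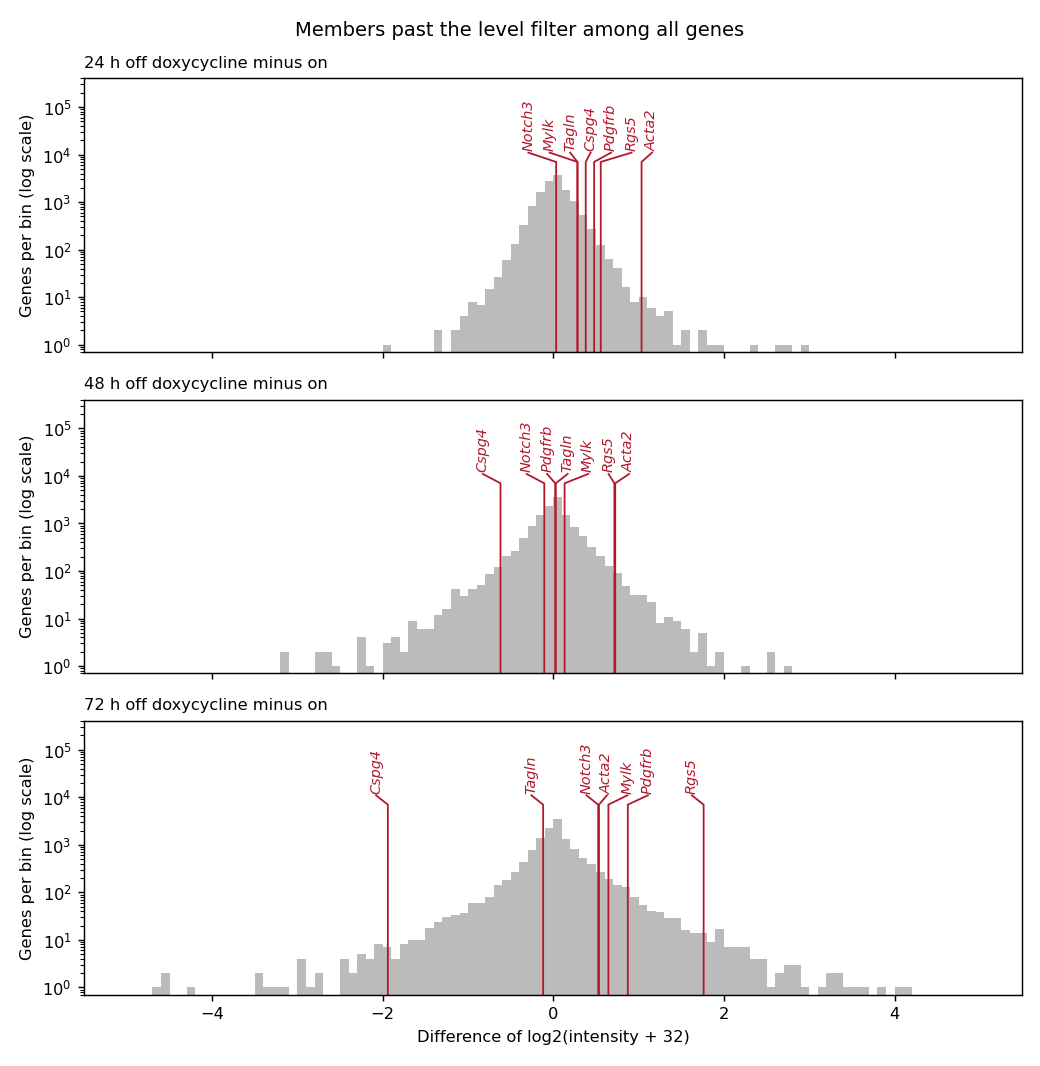
Number of genes per bin of 0.1 (log scale) by difference of log2(intensity + 32) at 24, 48 and 72 h off doxycycline against on, over the 13522 genes past the level filter, with red lines at the 7 members among them. At 24 h the members run from 0.03 for Notch3 to 1.03 for Acta2, and at 72 h from -1.94 for Cspg4 to 1.76 for Rgs5.

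The arrays off doxycycline were also compared with each other, which leaves the control array out. At 72 h against 24 h Cspg4 was lower on both probe sets, at -2.32 and -2.26, and was 17th from the bottom of all genes, while the brightest Rgs5 probe set was higher by 1.21. These were 1 gene higher and 1 lower of 7, against 1.97% and 1.85% of all genes. Acta2 and Tagln read 684 and 405 at 72 h and 980.1 and 546 at 24 h, with differences of -0.50 and -0.40. Notch3, Pdgfrb and Mylk lay on the other side, at 0.49, 0.39 and 0.36. At 72 h against 48 h the brightest Rgs5 probe set was higher by 1.05, and the other Rgs5 probe sets were at 0.25, 0.33 and -0.15. Cspg4 was at -1.32 on its brighter probe set and -1.06 on the other. Of all genes, 0.917% were 2-fold higher and 0.214% 2-fold lower. Pdgfrb was at 0.85 on its brighter probe set and 0.48 on the other. At 48 h against 24 h none of the 7 was past 2-fold by its brightest probe set, with Cspg4 at the border, -0.999, and its other probe set at -1.20; the shares of all genes were 0.569% and 1.01%.

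Other contractile genes of smooth muscle did not share a direction. Of 22 measured, 20 passed the filter and their median difference was 0.00, -0.08 and 0.00 at 24, 48 and 72 h. None was past 2-fold at 24 or 48 h, and at 72 h 1 was lower, Itga8, an integrin subunit. It read 111 on doxycycline and 212, 48.8 and 27.0 at 24, 48 and 72 h, with another probe set at -0.39 at 72 h. The intermediate filament gene Des (desmin) had differences of 0.34, 0.01 and 0.74, although another probe set was at -0.55 at 72 h. The myosin light chain gene Myl9 was above the control at each time, by 0.40, 0.35 and 0.50. Tagln2, a relative of Tagln made by many cell types, had -0.30, -0.54 and -0.98, with other probe sets between -0.82 and 0.01 at 72 h. Actg2, the enteric smooth muscle actin, and Ppp1r14a, an inhibitor of myosin phosphatase, were below the filter. Beside this list and those below, 0.266%, 0.754% and 2.29% of all genes were 2-fold higher at 24, 48 and 72 h. The shares of all genes 2-fold lower were 0.0666%, 1.04% and 1.63%.

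Among 12 transcription regulators of smooth muscle, 11 passed the filter, and medians were 0.03, 0.06 and 0.00. At 48 h 1 was 2-fold higher, Mef2c, at 1.07, and 1 lower, Klf4, a repressor of contractile genes in smooth muscle, at -1.20, with its other probe set at -0.38. At 72 h only Klf4 was past 2-fold, at -1.07, with another probe set at -0.65. Mrtfb, an SRF coactivator, was at 0.23, 0.54 and 0.41, with other probe sets between -0.08 and 0.03 at 72 h, and the Notch target Heyl at -0.35, -0.54 and -0.20. Srf itself, looked up for the motif, differed by 0.03, 0.08 and 0.11.

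Other pericyte genes were mixed as well. Of 18 listed, 17 were measured and 15 passed the filter; 0, 1 and 2 were 2-fold higher and 0, 1 and 1 lower at 24, 48 and 72 h, with medians of -0.05, 0.10 and 0.14. Postn (periostin), a matrix protein that fibroblasts also make, was higher by 1.23 at 48 h and 2.86 at 72 h, reading 5879 at 72 h, against 781 on doxycycline. Anpep, the aminopeptidase CD13, was higher by 1.22 at 72 h. The sphingosine phosphate receptor gene S1pr3 was lower, at -1.21 at 48 h and -1.50 at 72 h (other probe sets at -0.66 to -0.17 and at -1.08 to -0.92), and the adhesion molecule Mcam had -0.49 and -0.73. Kcnj8, a potassium channel subunit, and Higd1b, both narrow pericyte markers in mouse brain, were below the filter.

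In the PDGF family, of which 5 of 6 genes passed the filter, the ligand gene Pdgfa was lower at 48 and 72 h, at -1.23 and -1.08, and Pdgfrl, named for its likeness to PDGF receptors, was higher at 72 h, at 1.69; none was past 2-fold at 24 h. Pdgfb, whose product is the ligand of PDGFR-beta, was looked up after the values had been seen and read 99.2 on doxycycline and 91.9, 89.4 and 92.0 at 24, 48 and 72 h. Pdgfra, the receptor of fibroblasts, differed by 0.11, -0.58 and -0.57, the opposite side from Pdgfrb at 72 h. Other Pdgfra probe sets lay between -0.08 and 0.11 at 48 h and between -0.68 and -0.13 at 72 h. Pdgfc differed by -0.01, 0.42 and 0.28.

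In the Notch pathway 15 of 19 genes passed the filter, with medians of -0.02 at 48 h and 0.02 at 72 h. None was past 2-fold at 24 h and none was higher by 2-fold at any time. The ligand gene Jag1 was lower at 48 and 72 h, at -1.11 and -1.06, although its other probe sets lay between -0.06 and -0.05 at 48 h and between -0.19 and -0.05 at 72 h, and the target Hes1 was lower at 72 h, at -1.26. The DNA-binding partner Rbpj had -0.44 and -0.56 at 48 and 72 h, and the coactivator Maml1 0.21 and 0.43. Other Rbpj probe sets lay between -0.26 and 0.00 at 48 h and between -0.48 and -0.16 at 72 h. Those of Maml1 lay between 0.00 and 0.08 at 48 h and between 0.04 and 0.07 at 72 h.

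TGF-beta signalling, which drives contractile genes in myofibroblasts, had 15 of 16 genes measured, all past the filter, with medians of -0.12, 0.05 and -0.05. At 24 h none was past 2-fold. At 48 h Tgfb2 and Ltbp1 were higher, by 1.37 and 1.16, and Tgfb1 was lower, at -1.25. Other probe sets at 48 h were at 0.36 to 0.58 for Tgfb2, at -0.01 to 0.02 for Ltbp1 and at 0.16 for Tgfb1, so each of these calls rests on 1 probe set. At 72 h the higher genes were Tgfb2, at 1.33, and the coreceptor gene Tgfbr3, at 1.21, and Tgfb1, the inhibitor Smad7 and Ccn2 were lower, at -1.41, -1.35 and -1.31. Tgfbr3 and Ccn2 were picked out for passing 2-fold. At 72 h other probe sets of Tgfb1, Smad7 and Tgfbr3 were at 0.13, -0.36 and 0.27, and those of Tgfb2 at 0.39 to 0.68. Of genes that carry the contraction signal, 15 of 21 were measured and 13 passed the filter, and none was past 2-fold at any time, with medians of 0.07, 0.07 and 0.16. The greatest mean differences were those of Rhob (-0.52 at 72 h), the myosin phosphatase subunits Ppp1r12a (0.51) and Ppp1cb (0.46), and the myosin light chain Myl12a (-0.89).

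Markers of several other cell types were also higher on the 72 h array, beside the brightest probe sets of Rgs5, Pdgfrb, Mylk and Notch3. The other Mylk and Notch3 probe sets lay between 0.00 and 0.08 then. Of all genes past the filter, 0.266%, 0.754% and 2.29% were 2-fold higher at 24, 48 and 72 h, and 0.0666% were lower at 24 h. Of 12 fibroblast markers, all past the filter, 0, 3 and 9 were 2-fold higher at 24, 48 and 72 h, with medians of -0.12, 0.69 and 1.59. Their summed intensity was 17380.4 on doxycycline and 17871, 36429 and 64942 at the 3 times. Lum and Dcn, proteoglycans of the matrix, stood at 3.23 and 2.88 on the 72 h array, although another Dcn probe set was at 0.17, and the collagen genes Col1a1 and Col1a2 by 2.24 and 1.77. Skeletal muscle markers, 10 of 12 past the filter, had 1, 0 and 8 genes 2-fold higher and summed to 516 on doxycycline and 813, 447 and 4894 later. The filter uses the mean over the 4 arrays, so some markers passed it only through their 72 h value. Myh4, for example, read 11.5 on doxycycline and 9.9, 11.5 and 470 later. At 72 h the other probe sets of Myh4 and Ckm, both among the 8 called, were at 0.34 and 0.09. For Tnni2, not called by its brightest probe set, another was at 2.44. The median of the skeletal muscle markers at 72 h was 2.53 past the filter and 1.75 over all 12 measured. Adipocyte markers, 6 of 8 measured past the filter, had 3 higher at 72 h (Adipoq, Fabp4 and Car3) and 2 lower at 24 h. The lower genes were Adipoq and Fabp4, at -1.01 and -1.19, with other Fabp4 probe sets at -0.53 to -0.04. At 72 h other probe sets lay between 0.02 and 2.29 for Fabp4 and between 0.04 and 2.13 for Car3. The adipocyte markers summed to 674, 371, 836 and 3349.6. Macrophage markers, 12 of 12 past the filter, had 1, 1 and 5 higher and summed to 6180.15, 10531, 8421 and 15406.

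Endothelial markers bear most closely on vessel wall genes. Of 12 measured, 10 passed the filter, while Tek and Vwf did not. Only Cdh5, the cadherin of endothelial junctions, was past 2-fold, at 1.19 at 72 h on 1 of its 2 probe sets, the other being at 0.00 at each time, but 9 of the 10 lay above the control then, against 1 of 10 at 24 h and 4 at 48 h. Medians were -0.12, -0.11 and 0.39. At 72 h Pecam1 was at 0.65, Cldn5 at 0.54, and the VEGF receptor gene Flt1 at -0.46, with other probe sets between -1.51 and -0.26. The summed intensity was 911 on doxycycline and 792, 807 and 1277 at 24, 48 and 72 h. That of the 9 members was 2158 on doxycycline and 3218, 2379 and 2692. Acta2 (980.1) and Cspg4 (794) made up most of the members' sum at 24 h. By their brightest probe sets, Mylk, Rgs5, Pdgfrb and Notch3 were each highest at 72 h, as most endothelial markers were. Dimmer probe sets of Mylk (1425504_at) and Rgs5 (1420940_x_at) were highest at 48 h instead. The other Notch3 probe set exceeded its control by only 0.08 at 72 h. Keratinocyte markers, 4 of 8 past the filter, had none past 2-fold and summed to 288, 274, 288 and 292. Melanocyte lineage markers summed to 4179, 3961, 5122 and 4406, most of it Sox10, with 1 of 6 past the filter 2-fold higher at 72 h, Pmel, at 1.14, and Tyr, Tyrp1, Mlana and Oca2 below the filter. Schwann cell markers, 8 of 8 measured past the filter, summed to 7902, 7397, 12446 and 12594, a sum that counts Sox10 again. Cdh19 was 2-fold higher at 48 and 72 h, by 1.95 and 1.99. The part of these cell types in the members' values was not tested.

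**Figure D4:**
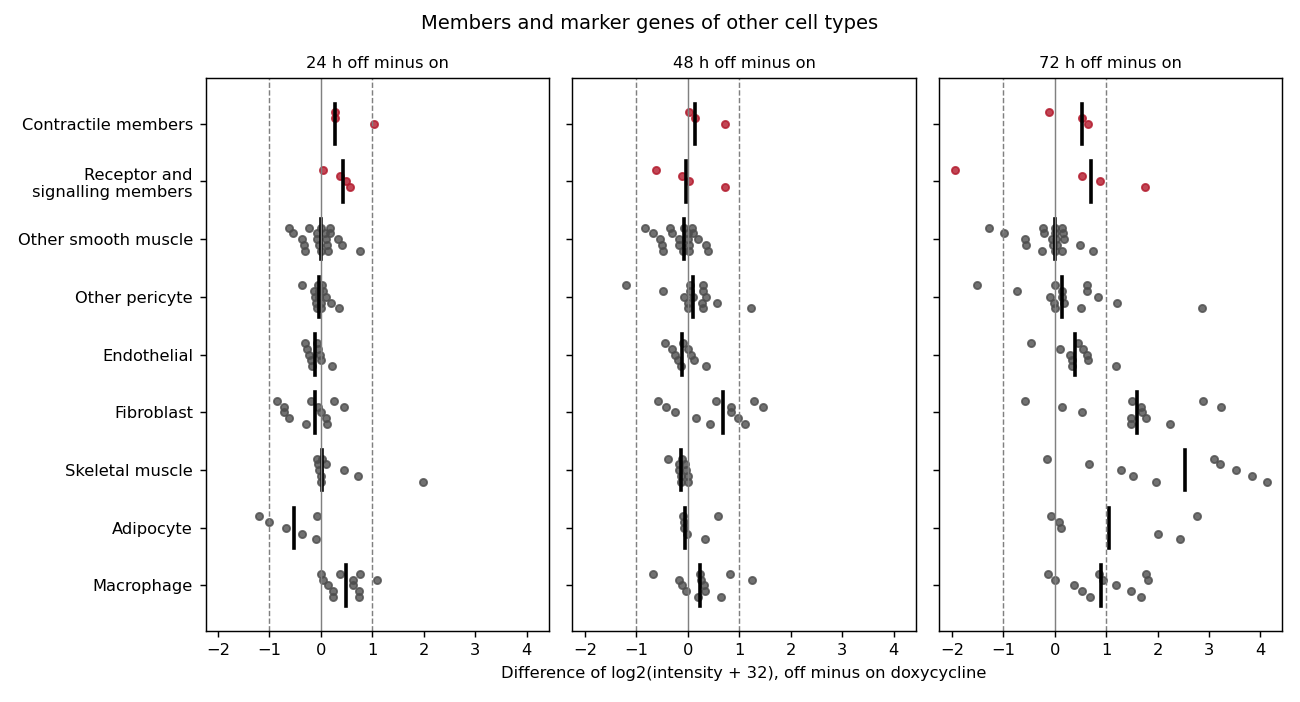
Differences of log2(intensity + 32), off minus on doxycycline, at 24, 48 and 72 h, with 1 dot per gene past the level filter. Members are red. Other smooth muscle genes, other pericyte genes and marker genes of other cell types are grey. Black bars are list medians and dashed lines a difference of 1. At 72 h the fibroblast and skeletal muscle medians reach 1.59 and 2.53, while the receptor and signalling members spread from -1.94 to 1.76. Some skeletal muscle markers pass the filter only through their 72 h value, and over all 12 measured their median is 1.75.

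The genes nearest to Acta2 and to Rgs5 in their 3 differences were sought among the other 13521 genes past the filter, by Euclidean distance. For Acta2 they were the chromatin protein gene Hmgb3 (0.90, 0.77 and 0.58 at 24, 48 and 72 h, distance 0.15), the chromatin regulator Kmt2e (distance 0.24) and the paraspeckle gene Pspc1 (distance 0.28), none of them a muscle gene on the lists. For Rgs5 they were Mpeg1, a macrophage gene (0.73, 0.64 and 1.78, distance 0.19), C3ar1, a receptor for complement C3a (0.64, 0.86 and 1.56, distance 0.26), and Abca8a, an ABC transporter (0.73, 0.52 and 1.78, distance 0.26). The likeness covers 4 arrays that share 1 control and says nothing of shared cells.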

How the data were processed

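Per the labels' protocols, about 50 mg of each tumour, free of skin, was snap frozen, and 10 ug of its Trizol-extracted RNA gave the biotinylated cRNA hybridised to an Affymetrix mouse array. The authors deposited 1 linear intensity per probe set and array. Both MAS5 and RMA appear in the submitters' processing notes, and the step that made these values is not stated there. Array medians were 33.4 on doxycycline and 33.3, 34.0 and 33.8 at 24, 48 and 72 h. At least 2 arrays held exactly equal values in 48.0% of probe sets, and in 4 of the 20 of the members (1 of Acta2, 2 of Myh11, 1 of Mylk). Detection calls were not used here.

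From the deposited intensities log2 of the value plus 32 was computed (Python 3.11.15, NumPy 2.4.6 and pandas 2.3.3), without further normalization. Symbols came from the platform annotation, from 34945 probe sets with a single symbol; another 932 carried more than 1 symbol, and the annotation does not list 9160. The brightest probe set stood for a gene. Each off array was set against the control with no test, since there is 1 array per group, and the calculation was tested on simulated data. The number of arrays limits the precision. In the lists, up to 4 genes with the greatest mean difference were named, and genes past 2-fold where few. Members and lists were chosen with earlier results of these data known. The planned comparison of member proteins was not run, since protein sequences were not used here.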

Additional observations from a re-analysis of the deposited data

How the results depend on the processing

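Alternatives were pseudocounts of 8 and of 4 times 32, quantile normalization, median centring, averaging a gene's probe sets, leaving out those named _x_at or _s_at, no level filter and a filter at the 60th percentile, which leaves out Mylk. The 1 member 2-fold higher at 24 h, Acta2, became 0 with the larger pseudocount (difference 0.91), quantile normalization (0.95), averaged probe sets (0.34) and without _x_at and _s_at probe sets, where the Acta2 probe sets that remain are below the filter. The 1 member higher at 72 h, Rgs5, became 0 with the mean over probe sets (0.67), and the 1 higher at 72 h against 24 h became 0 with averaged probe sets (0.49) and with the larger pseudocount (0.96). The members' median at 72 h, 0.53, was 0.65 and 0.30 with the smaller and the larger pseudocount, 0.24 with the mean over probe sets and 0.36 without _x_at and _s_at probe sets; at 24 h, 0.38, it was 0.20 with the mean over probe sets. Cspg4 stayed 2-fold lower at 72 h, against the control and against 24 h, under all 8 alternatives. The other 76 summary values kept their count or stayed within 0.1 of their median. Notch3 at 24 h, 0.03, was at -0.01 with quantile normalization, -0.12 with averaged probe sets and -0.28 without _x_at and _s_at probe sets. Allowing 1 G or C in the CArG box, chosen after the exact search had found 0 in the Acta2 window, gave 2. No paired analysis was possible because each group has 1 array. Each array is 1 tumour piece, dim probe sets such as those of Myh11 and Cnn1 cannot show small differences, and no setting supplies the missing replicate error.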
